A study of Mus musculus with 6 samples.

Results

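The genes described here are 9 regulators and structural genes of the early mouse eye, 5 of the retina and its stalk (Rax, Six6, Vax1, Vax2 and Tbx5) and 4 of the lens (Foxe3, Pitx3, Cryaa and Prox1). Each was read by the array's probe set that the platform annotation assigns to that gene symbol alone, with no filter on brightness, which gave 9 probe sets of the 21789 that carry 1 symbol. RNA came from 6 mouse embryos of stage E10.5, 3 labelled Tasp1 KO (Tasp1-/-) and 3 labelled WT. All were offspring of intercrossed Tasp1+/- mice on a C57Bl6 background, and each head was read on 1 Affymetrix array as a separate biological replicate. The tissue was the forebrain and midbrain part of the head, and the labels give neither litter nor sex. Values are deposited log2 signals per probe set, and every difference is a log2 difference, KO-labelled minus WT-labelled.

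The vertebrate eye starts as a single field in the anterior neural plate, set apart by transcription factors such as Rax, Six3, Pax6 and Six6. The optic vesicles that bulge from the forebrain fold into cups whose dorsal and ventral parts take on different identities, with Tbx5 expressed dorsally and Vax2 ventrally. Where the vesicle meets the surface ectoderm, the ectoderm thickens and closes into the lens vesicle, which expresses Foxe3, Pitx3 and Prox1 and then the crystallins that fill the lens fibres. At E10.5 in the mouse, optic cup and lens vesicle are forming. The product of Tasp1, Taspase1, is a protease whose substrates include MLL-family histone methyltransferases and the precursor of TFIIA.

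The genotype could not be checked from the array. The signal of Tasp1 averaged 8.59 over the KO-labelled heads, against 8.34 over the WT-labelled ones, and every KO-labelled head was above every WT-labelled head, against the labels' direction (limma, adjusted p = 0.79). No source used here places its probe set inside or outside the deletion, so its signal checks nothing. Heads are therefore called by their labels. WT 1 stood apart on the first principal component, with a score of -14.8 beside scores from -0.29 to 6.32 elsewhere. Xist read 12.3 in WT 2 and at most 5.24 in any other head, and the Y-linked gene Kdm5d read 5.48 in WT 2 and at least 9.76 elsewhere. The probe sets of Otx2, Sox2 and Lhx2, transcription factors expressed in the forebrain and midbrain, were brighter than 94.8% to 96.5% of those with 1 symbol. Those of the eye field gene Six3 and the midbrain gene En1 were brighter than 57.7% and 52.3%. No list of hindbrain markers was read, so the tissue label was not checked. Eye tissue makes up a small share of such a head, and in bulk RNA fewer eye cells and less RNA per eye cell cannot be told apart.

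The 9 genes differed little between the groups, and Tbx5 had the largest difference among them. Tbx5 read 0.75 times the WT-labelled level in the KO-labelled heads, and Six6, Prox1, Cryaa and Vax2 read 0.89, 0.91, 0.92 and 0.92 times. Rax was the only member with a higher mean, at 1.02 times. In all, 8 of 9 members had a lower mean in KO-labelled heads, 4 of 5 retina and 4 of 4 lens genes, beside 56.3% of all probe sets tested. The median difference was -0.12 over the retina members and -0.10 over the lens members, beside -0.01 over all probe sets. Of all probe sets tested, 5% had a difference below -0.16.

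None of the 9 passed the test. In limma, with adjustment over all 21789 probe sets, 0 probe sets passed an adjusted p of 0.05 (0% of those tested), the smallest adjusted p being 0.073. At an unadjusted p under 0.05 limma gave 1354 probe sets (6.21%), of which 848 were lower (3.89%) and 506 higher (2.32%). The share of higher ones among these was 37.4%, but 26.8% with quantile normalization and 21.6% with each array centred on its median. Among the members, 1 of 9, Tbx5, lay under that level. The KO-labelled heads lay wholly below the WT-labelled heads for 2 of 9 members, Tbx5 and Cryaa, beside 6.76% of all probe sets. A higher signal in every KO-labelled head was found for 0 of 9 members, beside 4.15% of all probe sets. The exact two-sided permutation p of any member has a floor of 0.1 with 3 heads a group.

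**Figure D1:**
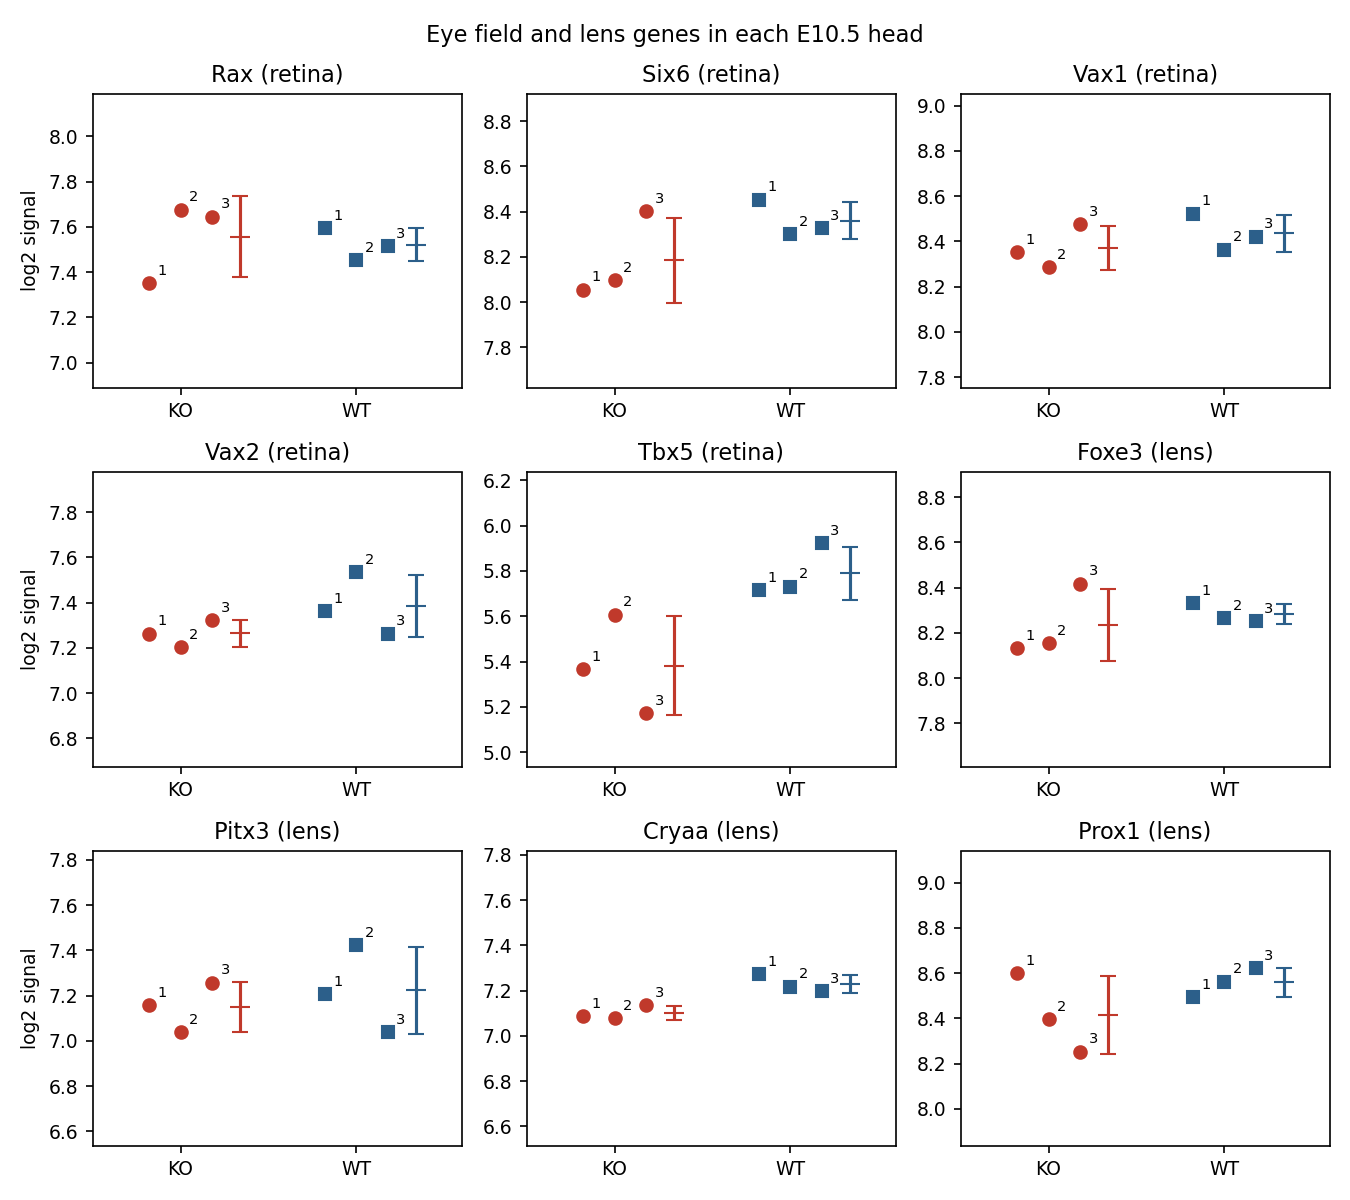
Log2 signal (vertical axis, the same span of 1.3 units in every panel) of each of the 9 genes in the 3 KO-labelled heads (circles, left) and the 3 WT-labelled heads (squares, right), numbered by replicate. Bars give the mean ± SD of the group. Tbx5 and Cryaa are the genes whose groups do not overlap.

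Rax, a homeobox gene without which the mouse forms no optic vesicles, read 7.35, 7.68 and 7.64 in the KO-labelled heads, against 7.60, 7.45 and 7.52 in the WT-labelled heads. KO-labelled heads lay on both sides of the WT-labelled ones, KO 1 being the lowest of all and KO 2 the highest. The means were 7.56 ± 0.18 over the KO-labelled heads, against 7.52 ± 0.07 over the WT-labelled ones (± SD, n = 3 each), a difference of 0.04 with a 95% confidence interval from -0.17 to 0.25 (limma, adjusted p = 0.97). On the scale of signals, that interval runs from 0.89 to 1.19 times.

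Six6 encodes a homeodomain protein of the optic cup, hypothalamus and pituitary that keeps retinal progenitors dividing. Its signals were 8.06, 8.10 and 8.40 in the KO-labelled heads, against 8.45, 8.30 and 8.33 in the WT-labelled heads. KO 1 and KO 2 lay below every WT-labelled head, and KO 3 lay among them. The means were 8.18 ± 0.19 over the KO-labelled heads, against 8.36 ± 0.08 over the WT-labelled ones (± SD, n = 3 each), a difference of -0.18 (SE 0.095, limma adjusted p = 0.85). The size of this difference depended on single heads: it was -0.28 without KO 3 (limma, adjusted p = 0.63) and -0.11 without KO 1.

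Vax1 and Vax2 are related homeobox genes, Vax1 of the optic stalk and ventral forebrain and Vax2 of the ventral retina. Vax1 read 8.35, 8.29 and 8.48 in the KO-labelled heads, against 8.52, 8.36 and 8.42 in the WT-labelled heads. Vax2 read 7.26, 7.20 and 7.32 in the KO-labelled heads, against 7.36, 7.53 and 7.26 in the WT-labelled heads. Both overlapped between the groups, Vax2 through WT 3, which was as low as KO 1. The difference was -0.06 for Vax1 (95% confidence interval -0.23 to 0.10) and -0.12 for Vax2 (-0.31 to 0.07), with limma adjusted p-values of 0.92 and 0.88. With 1 head left out, the difference of Vax1 ran from -0.12 without KO 3 to -0.02 without WT 1 or KO 2. That of Vax2 was -0.05 without WT 2 and -0.18 without WT 3.

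Tbx5 encodes a T-box transcription factor of the dorsal retina, known also from the heart and the forelimb. Its signals were 5.37, 5.61 and 5.17 in the KO-labelled heads, against 5.71, 5.73 and 5.92 in the WT-labelled heads. Every KO-labelled head lay below every WT-labelled head, with KO 3 the lowest and WT 3 the highest. The means were 5.38 ± 0.22 over the KO-labelled heads, against 5.79 ± 0.12 over the WT-labelled ones (± SD, n = 3 each), a difference of -0.41 with a 95% confidence interval from -0.65 to -0.16. The unadjusted p of 0.0039 in limma was matched or undercut by 151 probe sets, this one included, and the adjusted p was 0.56. The exact permutation test gave a two-sided p of 0.1, its smallest value.

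The Tbx5 probe set was dim, brighter than 18.6% of the probe sets with 1 symbol, and it was the only member under the 40th percentile. The deposited table holds no detection calls, so how much of this signal is background is unknown, and 0.75 compares signals rather than transcript numbers. The same limit holds for the other members. Cryaa, Pitx3, Vax2 and Rax were brighter than 41.3%, 41.7%, 43.3% and 46.2% of these probe sets. Of 18 photoreceptor genes tested, which the eye does not yet use at E10.5, 17 lay under the 40th percentile. The exception, Cngb1, was brighter than 53.3%. With 64 added on the linear scale before the logarithm, the difference of Tbx5 was -0.17. With 1 head left out in turn it ran from -0.52 to -0.30.

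**Figure D2:**
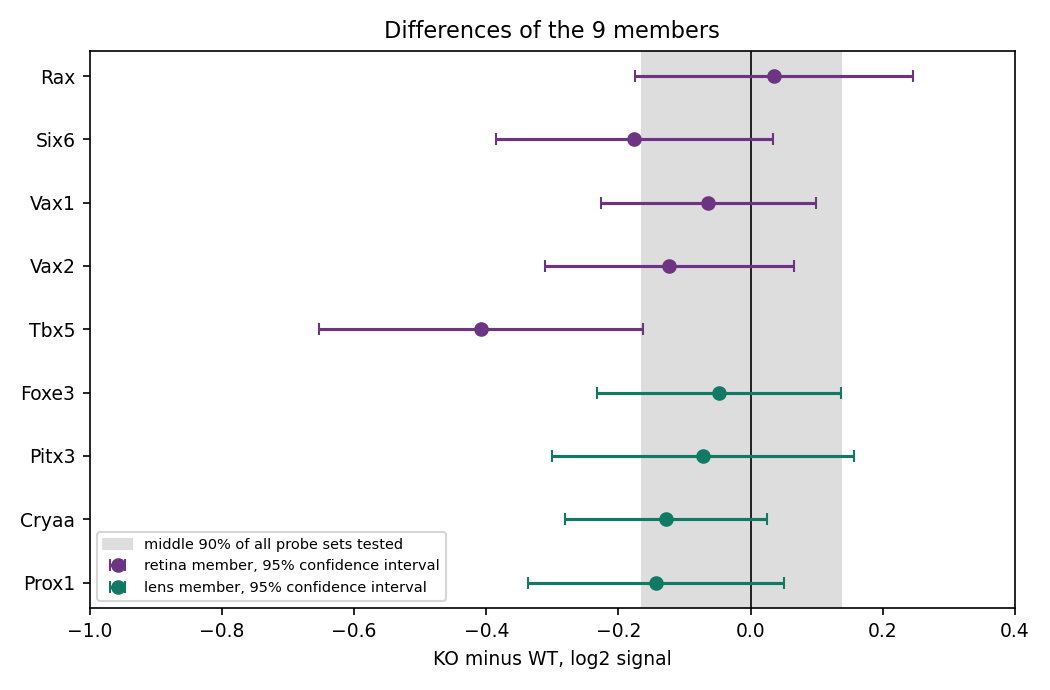
Difference KO-labelled minus WT-labelled in log2 signal (horizontal axis) for each of the 9 genes, with its 95% confidence interval from limma (n = 3 heads each). The grey band holds the middle 90% of the differences of all 21789 probe sets tested, from -0.16 to 0.14. The interval of Tbx5 lies below 0, and those of the other 8 genes include 0.

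Foxe3, a forkhead gene that the lens vesicle needs to close and its epithelium to divide, read 8.13, 8.16 and 8.42 in the KO-labelled heads, against 8.33, 8.26 and 8.25 in the WT-labelled heads. The WT-labelled heads lay within the range of the KO-labelled ones, of which KO 3 was again the highest. The difference was -0.05 (95% confidence interval -0.23 to 0.14, limma adjusted p = 0.95).

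Pitx3, a homeobox gene of the lens and of midbrain dopaminergic neurons, read 7.16, 7.04 and 7.26 in the KO-labelled heads, against 7.21, 7.42 and 7.04 in the WT-labelled heads. The groups overlapped, with both the highest and a near-lowest head labelled WT. Its difference was -0.07 (95% confidence interval -0.30 to 0.16, limma adjusted p = 0.94), and it was 0.03 without WT 2. Of 10 other markers of midbrain dopaminergic neurons tested, 5 were lower and 5 higher (median 0.02). Th, the rate-limiting enzyme of dopamine synthesis, was lower in every KO-labelled head (7.73 ± 0.15 over the KO-labelled heads, against 8.01 ± 0.07 over the WT-labelled ones, ± SD, n = 3 each, limma adjusted p = 0.65), and En2 differed by 0.16.

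Cryaa encodes alpha-A crystallin, a small heat shock protein that is among the main proteins of the lens. Its signals were 7.09, 7.08 and 7.14 in the KO-labelled heads, against 7.27, 7.22 and 7.20 in the WT-labelled heads. The groups did not overlap, although the gap between KO 3 and WT 3 was narrow. The means were 7.10 ± 0.03 over the KO-labelled heads, against 7.23 ± 0.04 over the WT-labelled ones (± SD, n = 3 each), a difference of -0.13 (SE 0.069, limma adjusted p = 0.85). The difference stayed between -0.15 and -0.11 with 1 head left out in turn. Its groups were the tightest of the 9, so a small difference separated them, and its 95% confidence interval, from -0.28 to 0.03, includes 0.

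Prox1, a homeobox gene that lens fibres need to elongate and that also marks lymphatic endothelium, liver buds and some young neurons, read 8.60, 8.40 and 8.25 in the KO-labelled heads, against 8.49, 8.56 and 8.62 in the WT-labelled heads. KO 2 and KO 3 lay below the WT-labelled heads, and KO 1 lay among them. The difference was -0.14 (SE 0.088, limma adjusted p = 0.87), -0.23 without KO 1 and -0.06 without KO 3. Young neuron markers had the same order of KO-labelled heads as Prox1, with list means of 0.12, -0.12 and -0.29 in KO 1, KO 2 and KO 3 after each gene was centred on its mean over the 6 heads. Their WT-labelled heads read 0.07, 0.24 and -0.02, an order that Prox1 did not share. All 10 of these neuron markers were lower in KO-labelled heads (median -0.15), Neurod1 (on chromosome 2, as Tasp1 is) by -0.46 and Nefm by -0.28, and their part in the Prox1 values was not tested.

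Promoters from the RefSeq table of build GRCm38.p6 were read for 6 of the 9 members, and 3 are printed here. The printed ones are those of Cryaa, whose groups did not overlap, and of Six6 and Vax1, the retina members among these 6. The chromosome of Rax was not read, so the count does not show that Rax lacks an entry. The search gave no window for Tbx5 or Vax2. Each run is the 250 bases before the gene's start, read 5′ to 3′ on the gene's strand, with motif matches in capitals. The Cryaa window is chr17:31677681-31677930 on the plus strand, the Six6 window chr12:72939632-72939881 on the plus strand, and the Vax1 window chr19:59170398-59170647 on the minus strand.
Cryaa: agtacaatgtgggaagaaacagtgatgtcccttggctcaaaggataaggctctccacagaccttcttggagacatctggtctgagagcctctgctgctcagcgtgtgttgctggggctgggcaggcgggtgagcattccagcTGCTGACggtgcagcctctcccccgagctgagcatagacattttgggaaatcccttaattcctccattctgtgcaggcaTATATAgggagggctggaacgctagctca
Six6: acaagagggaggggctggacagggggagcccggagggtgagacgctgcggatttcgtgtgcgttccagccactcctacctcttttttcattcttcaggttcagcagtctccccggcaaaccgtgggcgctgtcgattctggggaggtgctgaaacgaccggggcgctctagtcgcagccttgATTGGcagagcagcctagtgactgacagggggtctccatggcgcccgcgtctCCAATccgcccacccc
Vax1: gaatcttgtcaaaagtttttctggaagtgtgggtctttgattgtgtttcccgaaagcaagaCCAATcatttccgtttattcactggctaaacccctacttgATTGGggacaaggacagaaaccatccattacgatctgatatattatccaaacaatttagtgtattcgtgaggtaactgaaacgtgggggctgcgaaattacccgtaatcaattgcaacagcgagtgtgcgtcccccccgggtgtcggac
In Cryaa the capitals mark a MAF motif, TGCTGAC, beginning 108 bases before the start of the gene, and a match to the TATA box, beginning 29 bases before that start. In Six6 and Vax1 they mark the CCAAT box, which reads ATTGG when it lies on the opposite strand, with 2 matches in each window and no overlap.

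Both strands of each window were searched for 6 motifs, and their shares are given over 32851 promoter windows of the same length. The TATA box pattern TATANA was in 22.6% of the windows, and the MAF motif spelled above in 3.81%. The homeodomain core TAATTA was in 4.84% and the CCAAT box in 33.8%. The forkhead core TGTTTAC was in 3.17% of windows, and the T-box motif GGTGTGA was in 3.33%. Of the windows not printed, that of Prox1 at chr1:190170828-190171077 held 4 matches to the TATA box pattern. These matches began between 34 and 24 bases before the start and partly overlapped. Another Prox1 window, chr1:190169516-190169765, and those of Foxe3 and Pitx3 held no match to any of the 6. MAF proteins are known activators of crystallin genes. Maf itself, the lens member of that family, read 8.96 ± 0.06 over the KO-labelled heads, against 9.14 ± 0.07 over the WT-labelled ones (± SD, n = 3 each), lower in every KO-labelled head, and it did not pass the test (limma, difference -0.18, adjusted p = 0.74). A match is a description of these letters and was not tested as a site.

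Retina and lens genes were also compared head by head, as the mean of each list after every gene was centred on its own mean. The retina mean was -0.15, -0.05 and -0.02 in the KO-labelled heads, against 0.10, 0.05 and 0.06 in the WT-labelled heads. The lens mean was -0.03, -0.11 and -0.0086 in the KO-labelled heads, against 0.05, 0.09 and 0.0029 in the WT-labelled heads. Both lists were lower in each KO-labelled head, but the lens heads nearly met, at KO 3 and WT 3. Tbx5 set the separation of the retina list: without it, the mean of the other 4 genes was -0.13, -0.07 and 0.08 in the KO-labelled heads, against 0.10, 0.03 and -0.0036 in the WT-labelled heads, and KO 3 lay above WT 2 and WT 3. These genes were chosen with earlier results of these data known, so the list means carry no test.

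**Figure D3:**
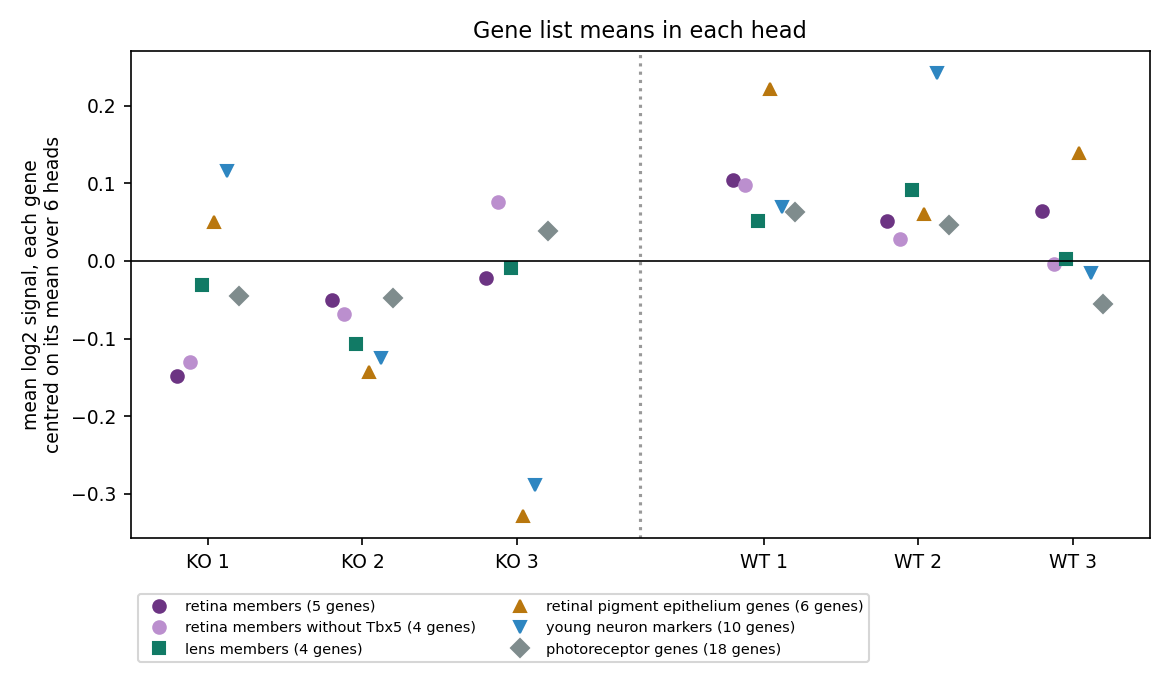
Mean log2 signal of 6 gene lists in each head (vertical axis), after each gene was centred on its mean over the 6 heads, with KO-labelled heads on the left and WT-labelled heads on the right. The retina members lie below 0 in all 3 KO-labelled heads, at -0.15, -0.05 and -0.02, but without Tbx5 the mean of KO 3 is 0.08. Photoreceptor genes are shown as a list that is not yet in use in the eye at this stage.

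Genes of mature photoreceptors, which the eye does not yet use at E10.5, served to show how dim probe sets varied between heads. Of 18 tested, 17 lay under the 40th percentile of brightness, and 13 were lower and 5 higher in KO-labelled heads (median -0.06). The groups did not overlap for 3 of the 18, Prph2 and Crx being lower and Arr3 higher in every KO-labelled head, beside 10.9% of all probe sets in either direction. That share stands beside every such count in the lists below. Their list mean was -0.04, -0.05 and 0.04 in the KO-labelled heads, against 0.06, 0.05 and -0.06 in the WT-labelled heads. The photoreceptor genes with the smallest p were Prph2 (-0.28), Arr3 (0.16), Crx (-0.11) and Gnat2 (-0.15). KO 3, WT 1 and WT 2 were thus the higher heads in these genes, as they were in Vax2 and Pitx3. Markers of heart and limb, where Tbx5 is also expressed, had means of -0.09, -0.06 and 0.10 in the KO-labelled heads, against 0.09, 0.01 and -0.06 in the WT-labelled heads. Of these 10 markers, 8 lay under the 40th percentile, among them Hand1, Nppa and Myh6, and 0 separated the groups. The limb growth factor gene Fgf10 differed by 0.23 and Hand2, a gene of heart and limb, by -0.14. The part of this head-to-head variation in the members' values was not tested.

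Tbx5 was set beside the other genes that mark the dorsal part of the retina. Of 9 tested, 5 were lower and 4 higher (median -0.02), and 2 of them, Aldh1a1 and Cyp1b1, were lower in every KO-labelled head, beside 6.76% of all probe sets. Aldh1a1, a retinaldehyde dehydrogenase that makes retinoic acid in the dorsal retina, read 7.66, 8.03 and 6.69 in the KO-labelled heads, against 8.64, 8.05 and 8.36 in the WT-labelled heads. KO 3 was its lowest head and KO 2 the highest of the KO-labelled ones, as for Tbx5. The difference of Aldh1a1 was -0.89 (SE 0.28, limma adjusted p = 0.69). Cyp1b1, a cytochrome that can also make retinoic acid, averaged 6.50 ± 0.04 over the KO-labelled heads, against 6.73 ± 0.08 over the WT-labelled ones (± SD, n = 3 each, limma adjusted p = 0.70). The remaining dorsal genes included the signal Bmp4 at -0.03, the T-box genes Tbx2 at 0.0040 and Tbx3 at 0.14, and the ephrins Efnb1 at -0.14 and Efnb2 at -0.02.

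Among 11 other genes of the ventral retina and optic stalk, 8 were lower and 3 higher (median -0.04). Nr2f1, a nuclear receptor gene of the optic stalk and forebrain, differed by -0.14 (limma, adjusted p = 0.78), and was the only one whose groups did not overlap. Aldh1a3, which makes retinoic acid in the ventral retina, differed by -0.0082, the stalk gene Pax2 by 0.10, Zfp703 by -0.11 and Nr2f2 by -0.07. Whether the dorsal Tbx5 and the ventral Vax2 differed unequally was read as Tbx5 minus Vax2 within each head. That value was -1.90, -1.60 and -2.15 in the KO-labelled heads, against -1.65, -1.80 and -1.34 in the WT-labelled heads, which overlap. The exact two-sided permutation p was 0.3, and 0.53 after Benjamini-Hochberg adjustment over the 4 gene pairs computed, all picked with the values known. For Six6 minus Rax the difference was -0.21, with each KO-labelled head below each WT-labelled head (exact p = 0.1, adjusted 0.4).

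**Figure D4:**
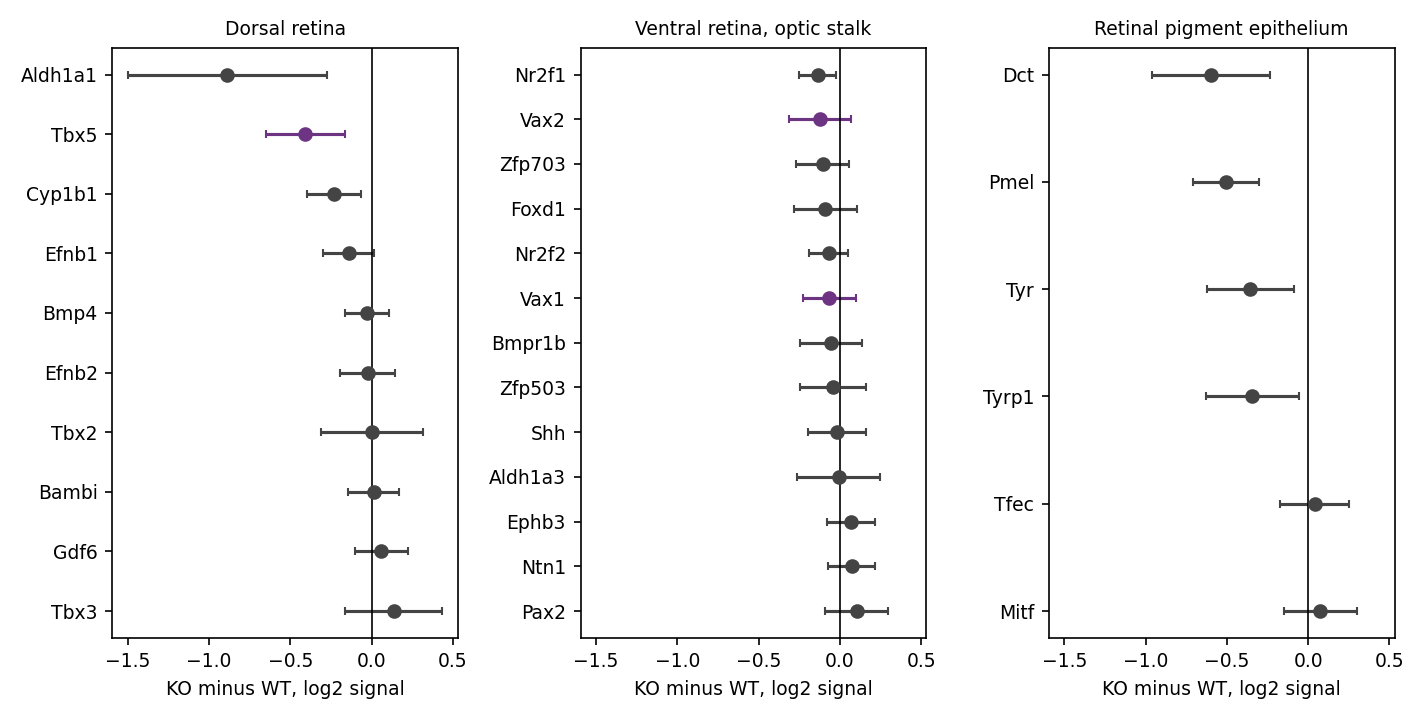
Difference KO-labelled minus WT-labelled in log2 signal (horizontal axis), with 95% confidence intervals from limma (n = 3 heads each), for genes of the dorsal retina, the ventral retina and optic stalk, and the retinal pigment epithelium. Tbx5, Vax1 and Vax2 are in purple. Aldh1a1 at -0.89, Dct at -0.60, Pmel at -0.50 and Tbx5 at -0.41 lie farthest to the left.

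The pigment epithelium, the outer layer of the optic cup, had the lowest median of the eye lists, -0.35 over 6 genes, 4 of them lower and 2 higher. Pmel, a structural protein of melanosomes, was lower in each KO-labelled head (7.54 ± 0.12 over the KO-labelled heads, against 8.04 ± 0.14 over the WT-labelled ones, ± SD, n = 3 each, limma adjusted p = 0.24). So was Dct, an enzyme of melanin synthesis (6.61 ± 0.40 over the KO-labelled heads, against 7.21 ± 0.11 over the WT-labelled ones, ± SD, n = 3 each, limma adjusted p = 0.58). Pigment cells of the neural crest also make Dct and Pmel. Of 11 markers of periocular mesenchyme and neural crest, 6 were lower and 5 higher (median -0.01), and the groups did not overlap for 1, the crest gene Sox10, which averaged 7.07 ± 0.20 over the KO-labelled heads, against 7.45 ± 0.20 over the WT-labelled ones (± SD, n = 3 each, limma adjusted p = 0.70). Their part in the pigment gene values was not tested. The melanin enzymes Tyr and Tyrp1 differed by -0.35 and -0.34, both at dim signals, and Mitf, the master regulator of pigment cells, by 0.08. The list mean was 0.05, -0.14 and -0.33 in the KO-labelled heads, against 0.22, 0.06 and 0.14 in the WT-labelled heads. KO 3 was thus lowest, as in Tbx5 and Aldh1a1 but not in Six6 or Rax. It was also the lowest head for Prox1, Lhx2 and the young neuron markers, so this was not particular to pigment or dorsal retina genes.

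The other eye field genes differed less, with 1 exception. Of 10 tested, 6 were lower and 4 higher, with a median of -0.0048. Lhx2, a homeobox gene that the optic vesicle needs to advance and that much of the forebrain expresses, read 11.09, 10.95 and 10.85 in the KO-labelled heads, against 11.33, 11.20 and 11.34 in the WT-labelled heads. All KO-labelled heads were lower, and the difference was -0.33 (SE 0.065, limma adjusted p = 0.30). Lhx2 lies on chromosome 2, as Tasp1 does, and none of the 9 members does. Of this list, Pax6 and Meis2 lie there too, and Meis2 differed by -0.0042. The part of this location in any difference was not tested. Six3, a relative of Six6, differed by -0.10 and Pax6, required for both retina and lens, by -0.06 (95% confidence interval -0.22 to 0.11).

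Progenitor genes of the neural retina (10 tested, 8 lower and 2 higher, median -0.05) held 0 genes whose groups did not overlap. The proneural gene Atoh7, which starts the ganglion cell fate, differed by -0.18, Hmx1 by -0.17, Foxn4 by -0.16 and Sfrp2 by -0.05.

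On the lens side, 12 other regulators of the placode and vesicle gave 8 lower and 4 higher (median -0.02). Besides Maf, the transcription factor gene Gata3 separated the groups, with 8.72 ± 0.02 over the KO-labelled heads, against 8.57 ± 0.07 over the WT-labelled ones (± SD, n = 3 each, limma adjusted p = 0.79), and it lies on chromosome 2. Six4 differed by 0.11 and Mab21l1 by -0.20. Of 16 other crystallin genes, 13 were lower and 3 higher (median -0.05), 10 lay under the 40th percentile of brightness, and 0 separated the groups. Crygd differed by -0.22 at a very dim signal, Cryab by -0.16, and Cryl1 and Crygs by -0.06 each.

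Lens fibre genes (14 tested, 5 lower and 9 higher, median 0.0053) held the smallest adjusted p among the eye lists. Of the 14, 7 lay under the 40th percentile of brightness, Grifin and Bfsp1 among them. Caprin2, which encodes an RNA-binding protein of lens fibres and also of red cell precursors, averaged 9.61 ± 0.07 over the KO-labelled heads, against 9.08 ± 0.07 over the WT-labelled ones (± SD, n = 3 each, 1.44 times, limma adjusted p = 0.073). Its direction was opposite to that of the 4 lens members. The Caprin2 probe set was brighter than 73.2% of those with 1 symbol, and which cells gave its signal was not tested. The groups did not overlap for 1 other fibre gene, Rbm24, at 0.06. Grifin, a lens galectin, differed by -0.16, the beaded filament gene Bfsp1 (on chromosome 2) by 0.14 and Cdkn1c by 0.08.

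Markers of other tissues that express members were read in the same way. For the hypothalamus, where Rax, Six6 and Vax1 are also expressed, 5 of 9 were lower and 4 higher (median -0.01), with list means between -0.05 and 0.00025 in the KO-labelled heads and between -0.0028 and 0.08 in the WT-labelled heads. Its regional regulators Nkx2-1 and Fezf1 differed by -0.08 and -0.01, whereas Sim1 differed by 0.31, Sst by -0.73, Nkx2-2 (on chromosome 2) by 0.22 and Otp by -0.16. None of them passed, and the groups did not overlap for 1 of the 9, Sim1. For the pituitary, 6 markers were tested, 5 lower and 1 higher (median -0.06), and 4 lay under the 40th percentile, Pomc (-0.12), Hesx1 (-0.07) and Lhx3 (-0.07, on chromosome 2) among them.

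For lymphatic and other endothelium, 5 of 10 were lower and 5 higher (median -0.00022), with Ramp2 at -0.32, the only one whose groups did not overlap, and the lymphatic marker Lyve1 at 0.29. For hepatoblasts, 6 of 7 markers lay under the 40th percentile, with Alb, Afp and Ttr among them (median -0.09). The groups did not overlap for 2 of the 7, Onecut1 at -0.18, the only brighter one, which neurons express too, and Hhex at -0.15. For the surface ectoderm, from which the lens arises, 6 of 10 were lower and 4 higher (median -0.0039). The groups did not overlap for 4 of these 10, with Cldn6 (-0.32), Tfap2c (-0.30, on chromosome 2) and Epcam (-0.11) lower and Cdh1 (0.16) higher, and Grhl2 differed by 0.18. Of all probe sets, 10.9% had groups that did not overlap, in either direction. In the list of periocular mesenchyme and neural crest given above, Dcn differed by 0.36 and Col1a1 by -0.23. Over these lists, 0 genes passed adjustment in limma.

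The likeness of other genes to each member was read as the root mean square distance between profiles over the 6 heads, each centred on its own mean, among 13065 probe sets above the 40th percentile. Six6 was nearest to Oasl1 and Nmral1, at 0.043 and 0.046, where its own spread over the heads was 0.15. Rax was nearest to Hacd1 and Bcam, Vax1 to Zfp395 and Lyl1, and Vax2 to Shisa9 and Col27a1. Foxe3 was nearest to Zic5 and Tma7, and Pitx3 to 1700041B01Rik and Rprl2. Cryaa was nearest to Fbxl22 and Nono, and Prox1 to Accs and Cdkn1b. The nearest 2 of each of these 8 members included none of the other eye genes listed here, and with 6 heads many profiles among so many are alike.

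**Figure D5:**
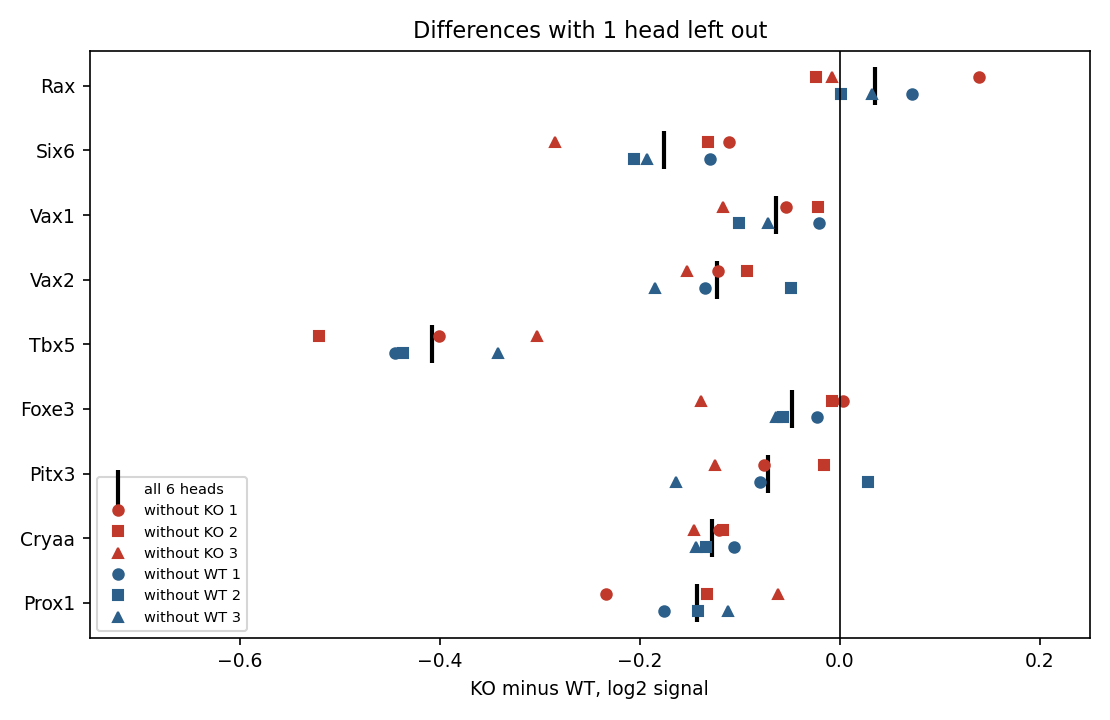
Difference KO-labelled minus WT-labelled in log2 signal (horizontal axis) of each of the 9 genes with all 6 heads (black bar) and with each KO-labelled (red) or WT-labelled (blue) head left out. Tbx5 stays between -0.52 and -0.30 and Cryaa between -0.15 and -0.11, whereas Rax, Foxe3 and Pitx3 reach both sides of 0.

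Left-out heads changed the direction of 3 members, all with differences near 0. Rax ran from -0.02 to 0.14, Foxe3 from -0.14 to 0.0037 and Pitx3 from -0.16 to 0.03. The other 6 members, Six6, Vax1, Vax2, Tbx5, Cryaa and Prox1, stayed lower in KO-labelled heads with any 1 head left out, Six6 between -0.28 and -0.11 and Prox1 between -0.23 and -0.06. The count of members with a lower mean was between 7 and 9 of 9.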

How the data were processed

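Biotin-labelled RNA from 100 ng of total RNA per head was hybridised to Affymetrix arrays, per the labels' protocols. The deposited values are log2 signals per probe set for 35556 probe sets, with array medians from 7.35 to 7.45. Expression Console and MAS5 are named in the submitters' processing notes, and background subtraction, scaling and probe summary are not given in the sources used here. Values were used as deposited. Of the probe sets, 21789 had 1 gene symbol in the platform annotation, 1621 had several and 12146 were not listed there. The 21789 were fitted with limma 3.58.1 in R 4.3.3 (lmFit, eBayes with trend, two-sided tests, Benjamini-Hochberg over all), and the procedure was tested on simulated data. Genes of a list with several probe sets were read from the brightest. The genes named are the 9 members, Tasp1, up to 4 genes of each list with the smallest unadjusted p, and the 2 nearest profiles of each member above the 40th percentile of brightness; others, named to spell out a count or a marker, were chosen after their values were seen. The members and lists were chosen with earlier results of these data known. The labels name separate biological replicates but no litters, and the number of arrays limits the precision. Alternatives covered normalization, a linear offset, a brightness filter, the probe sets tested, the variance model, array weights, a replicate block, Xist signal as a covariate and each head left out. Promoters came from RefSeq (GRCm38.p6); coordinates of the array probes were not used here.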

Additional observations from a re-analysis of the deposited data

How the results depend on the processing

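Members kept their direction under all alternatives that keep the 6 heads, except Pitx3, which was 0.033 with Xist signal as a covariate. Xist was high in WT 2 alone, so that setting is close to leaving WT 2 out, where Pitx3 was 0.028. With heads left out, Rax ran from -0.024 to 0.14, Foxe3 from -0.14 to 0.0037 and Pitx3 from -0.16 to 0.028. The median of the retina members ran from -0.18 (without WT 3) to -0.093 (without KO 2) with heads left out, and that of the lens members from -0.13 (without KO 3) to -0.066 (without KO 2). Tbx5 was not tested under the 40% brightness filter, since its probe set lay below the cut. Among the 8 members left there, 0 had an unadjusted p under 0.05 in limma. Without the mean-variance trend there were 2 (Tbx5 and Cryaa), and with heads left out 1 to 2. Over all probe sets, 0 passed the adjusted threshold in limma. With 1 probe set per gene 2 passed (Mir9-1 and Caprin2), with array weights 1 (Caprin2), and 9 with all probe sets, none of these with a single symbol. With heads left out 0 to 8 passed, 8 of them without KO 1 and 1 (Sst) without WT 1. At an unadjusted p under 0.05, heads left out gave 725 to 1946 probe sets, 277 to 769 higher and 448 to 1177 lower. Median centring gave 278 higher and all probe sets 1230 higher, where the main setting gave 506, and the share of higher ones was 60.6% over all probe sets. The cause of these shifts was not tested. Same-numbered heads did not vary together (correlations of deviations -0.21, -0.12 and -0.24), and with the replicate block 0 probe sets passed. The block leaves every difference as it is in this balanced design (Tbx5 -0.41), and the adjusted p of Tbx5 was 0.77. The dim signal of Tbx5 and the 3 heads per group limit what could be detected.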
